A study of Mus musculus with 13 samples.

Results

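The neurons described here carry the markers of Cajal-Retzius cells. They were found among the neurons of the mouse medial amygdala by their transcripts. A cell was taken when its deposited class was neuron, at least 500 genes were detected in it, no Slc32a1 molecule was counted, and it held either at least 1 Trp73 molecule or at least 1 molecule each of Nhlh2 and Ndnf. This rule found 189 cells among the 3649 neurons with at least 500 genes (5.18%), out of 43388 cells deposited. The cells were chosen by their counts of Trp73, Nhlh2, Ndnf and Slc32a1, so the levels of these genes are given as a description with no test.

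Cajal-Retzius cells are early-born glutamatergic neurons of the outermost layer of the cortex and hippocampus. They secrete reelin, a large extracellular protein that guides the layering of later neurons through the receptors Vldlr and Lrp8 and the adaptor Dab1. They arise at several borders of the developing telencephalon, carry the p53 relative p73 (Trp73) when they come from the medial and caudal ones, and most are lost after birth. The medial amygdala is a node of social behaviour circuits, and here it was sampled in both sexes.

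The libraries, 6 male and 7 female, were made from naive C57BL/6J mice. All were housed alone for at least 1 day under a reversed light cycle, with no other treatment and no transgene named. The age was 9 weeks except in female replicate 3 and male replicates 3 and 5, where it was 8 weeks. Dissociation followed Act-seq, which limits new transcription in that step. Capture was by Drop-seq, in which a unique molecular identifier (UMI) lets each captured mRNA be counted once. The labels do not say whether libraries came from separate or pooled animals, so p-values measure the spread between libraries, which may be technical. Libraries held 4168449 to 8843294 UMIs. They held 5 to 24 of the Cajal-Retzius-like cells each, with 79 in males and 110 in females, and the fewest in male replicate 3. The cells had a median of 3050 UMIs (663 to 20069) and 1866 genes, and 20620 to 107623 UMIs in all per library. The comparison set was 933 glutamatergic neurons with Slc17a6, the vesicular glutamate transporter VGLUT2, and without Slc32a1, Trp73, Nhlh2 or Ndnf, with a median of 1878 UMIs and 1054 genes. Barcodes shared between libraries occurred in 96 cells of the whole series, of which 1 was a Cajal-Retzius-like cell.

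The rule genes marked few cells outside the neurons. Trp73 was detected in 140 of the 3649 neurons and in 5 of 21159 cells of the other classes, and Nhlh2 with Ndnf in 154 neurons and in 0 other cells, which allows up to 3 such cells. Of the 189 cells, 138 held Trp73, 151 held Nhlh2 with Ndnf, and 100 held all 3 genes. Counting Trp73, Nhlh2, Ndnf and Reln, 90 cells held 4 of these markers, 73 held 3, 20 held 2 and 6 held 1. Trp73, Nhlh2 and Ndnf chose the cells, so these counts are partly fixed by the rule. By Trp73 alone 38 cells entered, and by Nhlh2 with Ndnf alone 51.

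Trp73 (chr4:154056253-154140208, minus strand, GRCm38) encodes p73, a transcription factor of the p53 family. In counts per 1000000 (CPM) scaled by the trimmed mean of M-values (TMM), its level in the lowest, median and highest library was 93.2, 337 and 508 CPM. Nhlh2 (chr3:102010076-102015492, plus strand), a basic helix-loop-helix factor of young neurons, lay at 362, 488 and 742 CPM. Ndnf (chr6:65671590-65712326, plus strand), a secreted factor also known from layer 1 interneurons, lay at 1835, 2252 and 3748 CPM. Each library thus held all 3 genes, and in the comparison neurons they were at 0 because the rule put them there. Slc17a6 was detected in 84.1% of the cells at 750.1 ± 235 CPM (SD, n = 13), against 2112 ± 395 CPM in the comparison neurons, which were chosen for it.

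The promoters of the genes that define the cells are shown because these genes were detected together in the same cells. RefSeq windows of 250 bases before to 50 bases after the start site (GRCm38.p6) were given for 9 of 12 genes looked up, and 6 of those windows are printed, 5′ to 3′ on the gene's strand. Capitals mark CAGCTG, an E-box of the kind that basic helix-loop-helix proteins bind, CCCNNGGG, the core of the Ebf motif, and TAATTA, a homeodomain motif. Each reads the same on both strands, and their letters do not let matches of different motifs overlap. Of all 32851 windows of this length, 16.3% held CAGCTG, 13.7% CCCNNGGG and 5.29% TAATTA. Trp73 has windows at chr4:154139826-154140125 (upstream start) and chr4:154097124-154097423 (internal start), both on the minus strand.
Trp73 upstream start: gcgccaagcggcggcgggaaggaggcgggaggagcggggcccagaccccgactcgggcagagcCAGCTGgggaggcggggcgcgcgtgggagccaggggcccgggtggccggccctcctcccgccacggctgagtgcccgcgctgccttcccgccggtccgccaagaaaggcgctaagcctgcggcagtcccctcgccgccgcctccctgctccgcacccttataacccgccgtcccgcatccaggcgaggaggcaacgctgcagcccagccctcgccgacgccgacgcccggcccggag
Trp73 internal start: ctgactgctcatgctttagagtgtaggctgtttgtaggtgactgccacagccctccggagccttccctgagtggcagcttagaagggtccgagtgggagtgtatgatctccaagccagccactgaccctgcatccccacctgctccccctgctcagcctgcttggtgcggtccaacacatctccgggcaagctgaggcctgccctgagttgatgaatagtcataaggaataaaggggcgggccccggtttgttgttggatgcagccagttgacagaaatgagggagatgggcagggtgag
The upstream window held 1 CAGCTG, starting at position -187 from the start site, and the internal window held none of the 3 motifs. The Nhlh2 window (chr3:102009895-102010194, plus strand) held 1 CAGCTG at position 44.
Nhlh2: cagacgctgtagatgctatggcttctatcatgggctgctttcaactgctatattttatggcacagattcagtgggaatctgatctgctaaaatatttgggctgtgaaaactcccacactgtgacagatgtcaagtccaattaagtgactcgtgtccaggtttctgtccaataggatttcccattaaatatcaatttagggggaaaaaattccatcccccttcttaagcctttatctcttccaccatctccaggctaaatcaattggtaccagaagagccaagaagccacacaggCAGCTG
Windows of 3 genes that the rule did not use follow: Reln (chr5:22344656-22344955, minus strand), Lhx1 (chr11:84525485-84525784, minus strand) and Tbr1 (chr2:61804203-61804502, plus strand).
Reln: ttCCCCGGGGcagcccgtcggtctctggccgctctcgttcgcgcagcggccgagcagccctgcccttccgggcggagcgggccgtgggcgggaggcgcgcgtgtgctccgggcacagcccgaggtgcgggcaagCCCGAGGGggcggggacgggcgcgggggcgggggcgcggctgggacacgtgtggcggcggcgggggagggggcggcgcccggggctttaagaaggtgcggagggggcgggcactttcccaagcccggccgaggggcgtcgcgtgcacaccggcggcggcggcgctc
Lhx1: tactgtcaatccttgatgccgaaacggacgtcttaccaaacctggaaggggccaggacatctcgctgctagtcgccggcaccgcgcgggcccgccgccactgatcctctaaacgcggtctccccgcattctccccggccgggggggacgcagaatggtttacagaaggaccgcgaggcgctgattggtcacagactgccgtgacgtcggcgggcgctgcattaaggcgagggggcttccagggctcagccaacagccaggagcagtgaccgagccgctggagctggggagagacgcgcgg
Tbr1: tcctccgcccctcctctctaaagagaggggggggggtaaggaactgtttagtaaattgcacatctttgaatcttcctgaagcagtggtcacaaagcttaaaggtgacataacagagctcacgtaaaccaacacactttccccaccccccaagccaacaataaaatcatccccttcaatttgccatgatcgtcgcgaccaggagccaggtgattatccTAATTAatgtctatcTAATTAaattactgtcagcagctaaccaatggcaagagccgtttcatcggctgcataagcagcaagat
Reln held 2 CCCNNGGG, Tbr1 held 2 TAATTA and Lhx1 held none of the 3 motifs. A match describes the letters only.

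Some of the chosen cells carried markers of other cell types. In 8 of the 189 cells a list of markers of a non-neuronal type held at least as many UMIs as the list of 12 neuron markers. In female replicate 4, 1 cell of 20069 UMIs held 113 UMIs of Rarres2, 106 of Ccdc153 and 30 of Foxj1, genes of ependymal cells, with 1 Reln UMI and none of Nhlh2, Ndnf or Lhx1. A cell of male replicate 4 held 11 Rarres2, 9 Ccdc153 and 2 Foxj1 UMIs and none of Nhlh2, Ndnf, Reln or Lhx1. In the other 6 an astrocyte or oligodendrocyte list exceeded the neuron list. The summed level per library in unscaled CPM was 408 to 10659 (median 1457) for the astrocyte list against 1456 to 4052 (median 2512) in the comparison neurons, with none of its 12 genes at 0. For the oligodendrocyte list it was 48.5 to 14078 (median 414) against 387 to 1345 (median 578), and for the ependymal list 0 to 3294 (median 25.5) against 31.5 to 111 (median 76.1). The neuron list lay at 17637 to 31183 (median 25667) against 24748 to 36917 (median 30311). The leptomeningeal list lay higher than in the comparison neurons, at 0 to 291 (median 76.6) against 0 to 46.7 (median 7.25), with 6 of its 10 genes at 0, Col1a1 and Lum among them. The mural list lay at 0 to 154 (median 52.7) against 3.93 to 57.9 (median 21.5), with Pdgfrb, Higd1b and Notch3 at 0 of 11 genes. The part of these markers in the results was not tested. The log2 differences of Reln, Ebf3, Emx2 and Cacna2d2 are also given without these 8 and the 58 comparison cells that met the same criterion. The other levels, shares and list counts are given with these cells included.

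Reln, the gene of reelin (chr5:21884454-22344702, minus strand), was not used to choose the cells, and it was high in them. Its level in the lowest, median and highest library was 433, 806 and 1024 CPM against 13.1, 60.6 and 145 CPM in the comparison neurons. The lowest library of the Cajal-Retzius-like cells lay above the highest of the comparison neurons. Summed over cells and compared within libraries by edgeR's quasi-likelihood test with Benjamini-Hochberg adjustment, Reln was higher by 3.66 ± 0.18 on the log2 scale (SE, n = 13 libraries, adjusted p = 7.8e-21), and by 3.69 without the cells with markers of other types (12 libraries, since male replicate 3 then had fewer than 5 cells). The means were 761 ± 179 and 63.2 ± 37.0 CPM (SD, n = 13).

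The chosen cells were deeper than the comparison neurons, so detection was also compared after thinning every cell to 1000 UMIs. This left out 9 of the 189 cells and 172 of the 933 comparison neurons. At that depth 52.1 ± 11.9% of the Cajal-Retzius-like cells held Reln against 4.48 ± 2.19% of the comparison neurons (SD, n = 13). The share was higher in 13 of 13 libraries (exact two-sided sign-flip permutation p = 0.000244, the smallest that 13 libraries allow). Without thinning, 83.6% of the cells held Reln, against 8.04% of the comparison neurons and 3.27% of astrocytes. Astrocytes, with a median of 1809 UMIs, should lack most of these genes, and their share is given as the background of free RNA in the droplets.

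Lhx1, a LIM homeodomain factor known from Cajal-Retzius and other early-born neurons (chr11:84518284-84525535, minus strand), was likewise outside the rule. It lay at 46.6, 337 and 547 CPM against 0, 0 and 8.88 CPM, again without overlap. The lowest value was that of male replicate 3, with 5 cells and 20922 UMIs. Of these UMIs 11265 were in 1 cell without Lhx1, whose astrocyte list exceeded its neuron list (221 against 203 UMIs). After thinning, 28.8 ± 9.76% of the cells held Lhx1 against 0.277 ± 0.583% (SD, n = 13), higher in 13 of 13 libraries (exact two-sided sign-flip permutation p = 0.000244). Unthinned shares were 56.6%, against 0.536% in comparison neurons and 0.0310% in astrocytes. The expression filter, which kept 2235 genes, left Lhx1 out, and without it the log2 difference was 5.95 (edgeR adjusted p = 1.3e-70).

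**Figure D1:**
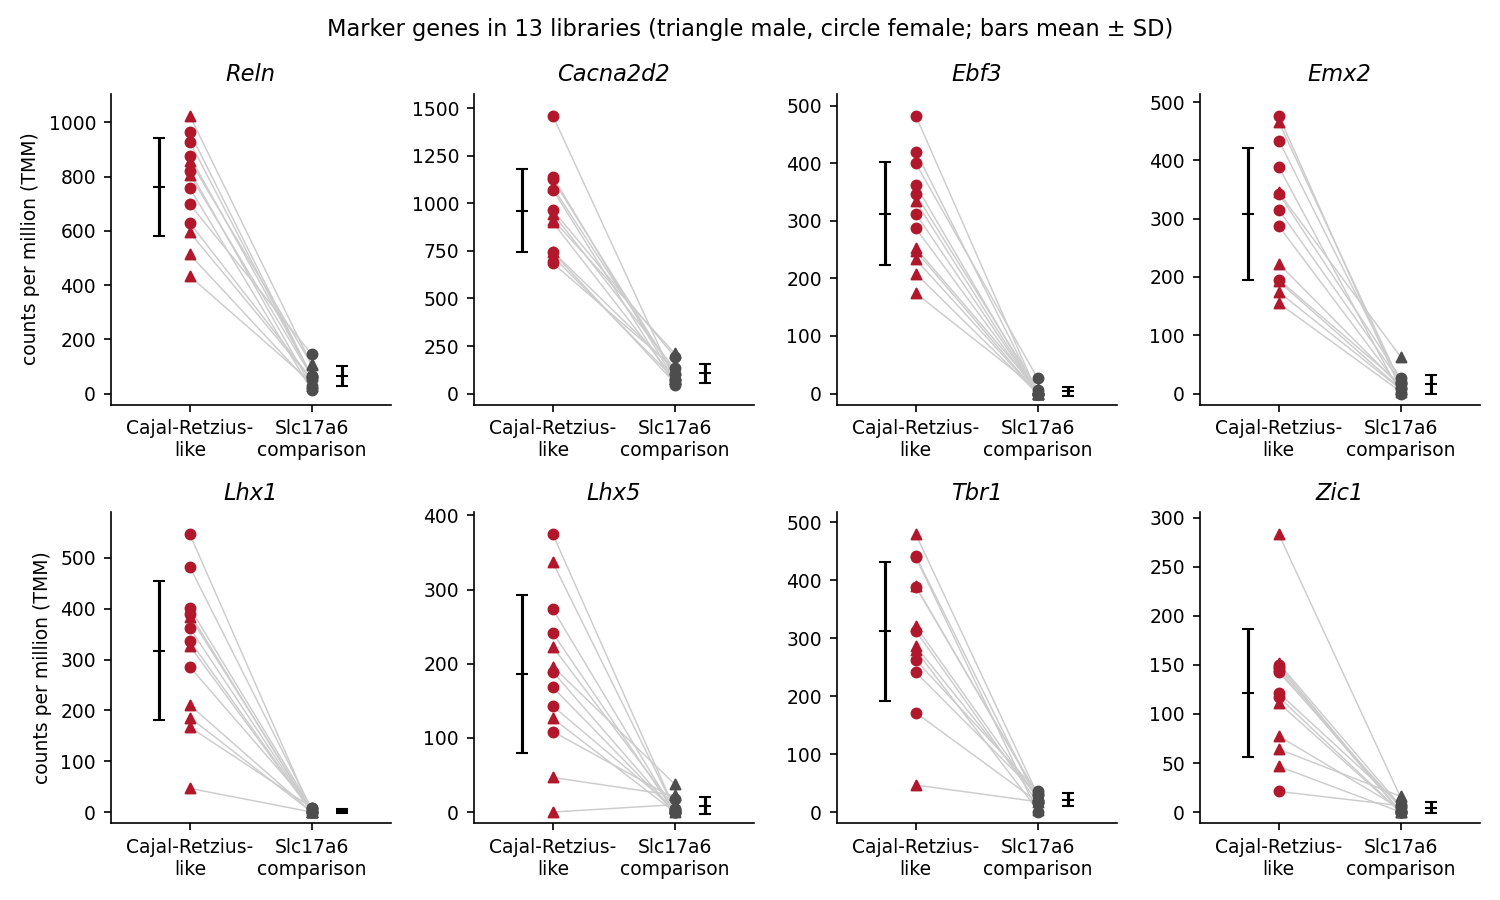
Level of 8 marker genes outside the rule in each of 13 libraries (TMM-scaled CPM, linear axes), in Cajal-Retzius-like cells and Slc17a6 comparison neurons of the same library, joined by grey lines. Triangles are male and circles female libraries, and bars give mean ± SD. The sets do not overlap for Reln, Lhx1, Ebf3, Cacna2d2 and Emx2, and Lhx5 is at 0 in the lowest library of the Cajal-Retzius-like cells.

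The longer list of Cajal-Retzius markers held 15 genes beside the 3 of the rule. Of the 5 that passed the expression filter, 4 were higher (Reln, Cacna2d2, Ebf3 and Emx2), 0 lower and 1 (Calb2) did not pass. The median log2 difference of the 5 was 3.66 against -0.01 over all genes tested. For reading these counts, 803 of the 2235 genes tested were higher (35.9%) and 922 lower (41.3%), so 77.2% differed in either direction. All 13 values of the Cajal-Retzius-like cells lay above all 13 of the comparison neurons in 109 genes (4.88%), and below them in 465 (20.8%). The list holds known markers of the cell type that the rule sought, so its direction is not independent of that choice. A gene could also pass the filter through its level in the Cajal-Retzius-like cells alone, and such a gene had to be higher. Without the filter 12 of the 15 were higher and 0 lower, where 9.43% of 16021 genes were higher and 19% lower.

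Ebf3, a transcription factor of the Ebf family (chr7:137193673-137314445, minus strand), lay at 174, 312 and 483 CPM in the lowest, median and highest library against 0, 0 and 26.4 CPM in the comparison neurons. The sets did not overlap, and the difference was 6.22 ± 0.34 on the log2 scale (SE, edgeR adjusted p = 4.5e-18). Its relatives Ebf1 and Ebf2 were not detectable above the comparison at this depth, with 1 and 7 UMIs in all Cajal-Retzius-like cells against 11 and 12. Emx2, a homeodomain factor of the dorsal and medial telencephalon (chr19:59458372-59465357, plus strand), lay at 155, 315 and 477 CPM against 0, 11.8 and 63.2 CPM, and was higher by 4.17 ± 0.25. Cacna2d2, an auxiliary subunit of voltage-gated calcium channels (chr9:107399612-107529343, plus strand), lay at 686, 946 and 1461 CPM against 45.7, 101 and 212 CPM, and was higher by 3.20 ± 0.18. Without the cells with markers of other types the log2 differences were 6.20 for Ebf3, 4.34 for Emx2 and 3.30 for Cacna2d2.

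The other 10 markers fell below the filter and are given by edgeR without it, where 9.43% of 16021 genes were higher and 19% lower. Lhx5, a LIM homeodomain factor related to Lhx1, lay at 187 ± 107 against 8.23 ± 11.4 CPM (SD, n = 13; log2 difference 3.96), higher in 12 of 13 libraries. Tbr1, a T-box factor of glutamatergic forebrain neurons, lay at 312 ± 119.9 against 21.4 ± 10.6 CPM (3.47). Zic1, a zinc finger factor of midline-derived cells, lay at 121 ± 64.9 against 4.52 ± 5.65 CPM (4.21). These genes were thus present in most libraries of the cells and near 0 in the comparison neurons. Mab21l1 and Barhl2 differed less, by 1.40 and 1.52, with 40.2 and 15.4 CPM in the comparison neurons. Cxcr4, the receptor of the chemokine Cxcl12, had 31 UMIs against 0 and was at least 43.4-fold higher, counting the comparison at 3 UMIs over the set. Eomes, a T-box factor, had 23 UMIs, 39.1% of them in 1 cell.

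Calb2, which encodes calretinin, is often used as a marker of Cajal-Retzius cells. It lay at 244 ± 158 CPM against 167 ± 117 CPM (SD, n = 13), higher in 7 of 13 libraries and with overlapping values, and did not pass (0.61 ± 0.30, edgeR adjusted p = 0.0765). Without cells over 10000 UMIs Calb2 passed, at 1.09 (edgeR adjusted p = 0.000243), as it did without any 1 of male replicate 2 or female replicates 2, 4 or 7 (0.69 to 0.88), or among the cells with Slc17a6 (0.73). At equal depth it was in 16.4% of the cells against 7.99% of the comparison neurons.

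At equal depth Cacna2d2, Ebf3, Tbr1 and Lhx5 also separated the sets in detection. Cacna2d2 was in 66.6% of Cajal-Retzius-like cells against 9.18% of comparison neurons, Ebf3 in 27.6% against 0.164%, Tbr1 in 27.0% against 1.24% and Lhx5 in 18.7% against 0.316%. In astrocytes these shares were 7.37%, 0.0498%, 0.0349% and 0.0240%. Unthinned, the 4 genes were in 88.4%, 58.2%, 57.1% and 43.9% of the cells. Not every marker separated the sets at equal depth: Ebf1 was in 0.264% against 0.404% of comparison neurons, and Ebf2 in 0.384% against 0.175%. Barhl2 and Mab21l1 were in 7.17% and 14.0%, against 1.44% and 2.12% of comparison neurons and 6.12% and 10.0% of Ndnf-only neurons. Markers of GABAergic neurons were rare: Gad1 was in 0.195% and Gad2 in 0.347%, below the 0.544% and 1.80% of astrocytes. In the comparison neurons they were in 0.832% and 3.17%, and in the Ndnf-only neurons in 1.15% and 4.74%. All 3 sets of neurons were chosen without Slc32a1, a gene of GABAergic neurons. Low levels of GABAergic markers are therefore partly fixed by the choice of cells. Dlx2, Dlx5, Dlx6os1 and Sp9, factors of GABAergic neurons, were at 0 UMIs. Slc17a7, the vesicular glutamate transporter VGLUT1, was in 1.11% against 5.32% of comparison neurons.

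**Figure D2:**
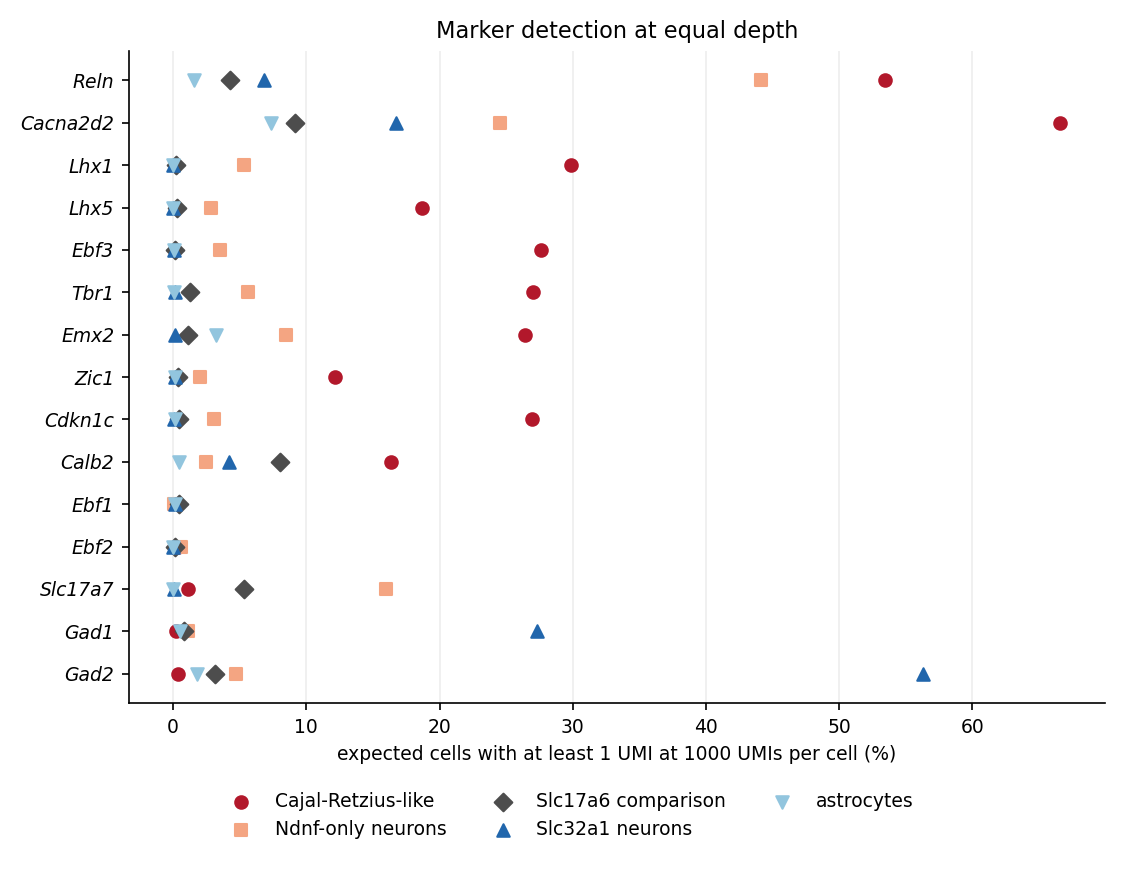
Expected share of cells with at least 1 UMI of each gene after thinning to 1000 UMIs per cell (x axis, %), in Cajal-Retzius-like cells (red circles), Ndnf-only neurons (orange squares), Slc17a6 comparison neurons (grey diamonds), Slc32a1 neurons (dark blue triangles) and astrocytes (light blue triangles). Reln is high in both Cajal-Retzius-like (53.5%) and Ndnf-only neurons (44.2%), while Lhx1 is in 29.9% and 5.31% of them.

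Each route of the rule was also taken alone, and the genes of the other route are given as a description with no test. Male replicate 3, with fewer than 5 cells by a route, did not enter, which left 12 libraries. Neurons with Trp73 were first compared with Slc17a6 neurons without it. In this comparison 71.9% of 2648 tested genes differed, 33.5% higher and 38.4% lower, or 658 higher and 1130 lower in place of 887 and 1018 when scaled by relative log expression. Nhlh2 lay at 519 ± 166 against 35.5 ± 17.7 CPM (SD, n = 12), and Ndnf at 2426 ± 748 against 269 ± 145 CPM. Both were higher in 12 of 12 libraries with no overlap, the lowest values being 310.3 and 1192 CPM against at most 75.9 and 496 CPM.

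Conversely, in neurons with both Nhlh2 and Ndnf, Trp73 lay at 333 ± 115 CPM against 16.1 ± 10.9 CPM in Slc17a6 neurons without both (SD, n = 12). Trp73 was higher in 12 of 12 libraries, with 112 CPM in the lowest against at most 35.6 CPM. There 75.1% of 2591 tested genes differed, 36.6% higher and 38.5% lower, or 689 and 1119 in place of 948 and 997 genes when scaled by relative log expression. These 3 genes made the rule, and nothing is read from their levels.

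Cells at the edges of the rule are given as pooled, unscaled CPM without a test. Just inside, the 27 cells with 1 Trp73 UMI and without both other genes had 1038 CPM of Reln and 229 CPM of Lhx1, and the 51 cells with Nhlh2 and Ndnf but no Trp73 had 741 and 389 CPM. Just outside, the 28 neurons with Nhlh2 alone had 47.1 CPM of Reln and 7.24 CPM of Lhx1, against 49.1 and 2.55 CPM in the comparison neurons. Lhx5 was higher in these 28 neurons, at 97.8 CPM in 32.1% of them against 8.29 CPM in 1.61%, and their median depth was 6840.5 UMIs. The 166 neurons with Ndnf alone had 499.7 CPM of Reln and 48.2 CPM of Lhx1. A further 4 neurons met the rule but for Slc32a1, and 14 neurons met it with at least 200 but under 500 genes. Reln was therefore high also in neurons with Ndnf that the rule left out.

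The Cajal-Retzius-like cells were compared with these Ndnf-only neurons in 11 libraries, a comparison chosen after seeing the data. Male replicates 1 and 3 had fewer than 5 cells in a set and did not enter. Of 932 genes tested 77.6% differed, 38% higher and 39.6% lower. Reln lay at 781 ± 176 against 657 ± 301 CPM (SD, n = 11), with overlapping values and a difference of 0.30 ± 0.20 on the log2 scale that did not pass (edgeR adjusted p = 0.158), higher in 8 of 11 libraries. Lhx1 differed, at 354 ± 109 against 64.4 ± 79.4 CPM (2.51 ± 0.37, adjusted p = 8.4e-08), and was higher in 11 of 11 libraries although the sets overlapped. Ebf3 lay at 328 ± 94.5 against 28.4 ± 34.6 CPM without overlap (3.72 ± 0.43, adjusted p = 1.2e-11). Tbr1 and Cacna2d2 were also higher, by 2.33 ± 0.33 and 1.69 ± 0.19.

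Several genes abundant in the Ndnf-only neurons were low in the Cajal-Retzius-like cells. Trh, the precursor of thyrotropin-releasing hormone, had 0 CPM in all 11 libraries of the Cajal-Retzius-like cells against 2228 ± 1698 CPM. Nell2, a secreted glycoprotein, lay at 3.93 ± 7.36 against 2199.7 ± 392 CPM, a log2 difference of -8.34 ± 0.31. Alcam, an adhesion molecule, lay at 12.3 ± 18.1 against 2275 ± 1049.8 CPM (-7.17 ± 0.30). Atp2b1, a plasma membrane calcium pump, was present in both, at 619 ± 149 against 4441 ± 955 CPM (-2.84 ± 0.14). Slc17a7 was in 16.0% of the Ndnf-only neurons at equal depth. Nell2 was not near 0 in every library of the Cajal-Retzius-like cells. Its highest male library held 463 CPM by the scaling of the sex comparison. Against the comparison neurons, in 13 libraries, its log2 difference was -6.91.

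**Figure D3:**
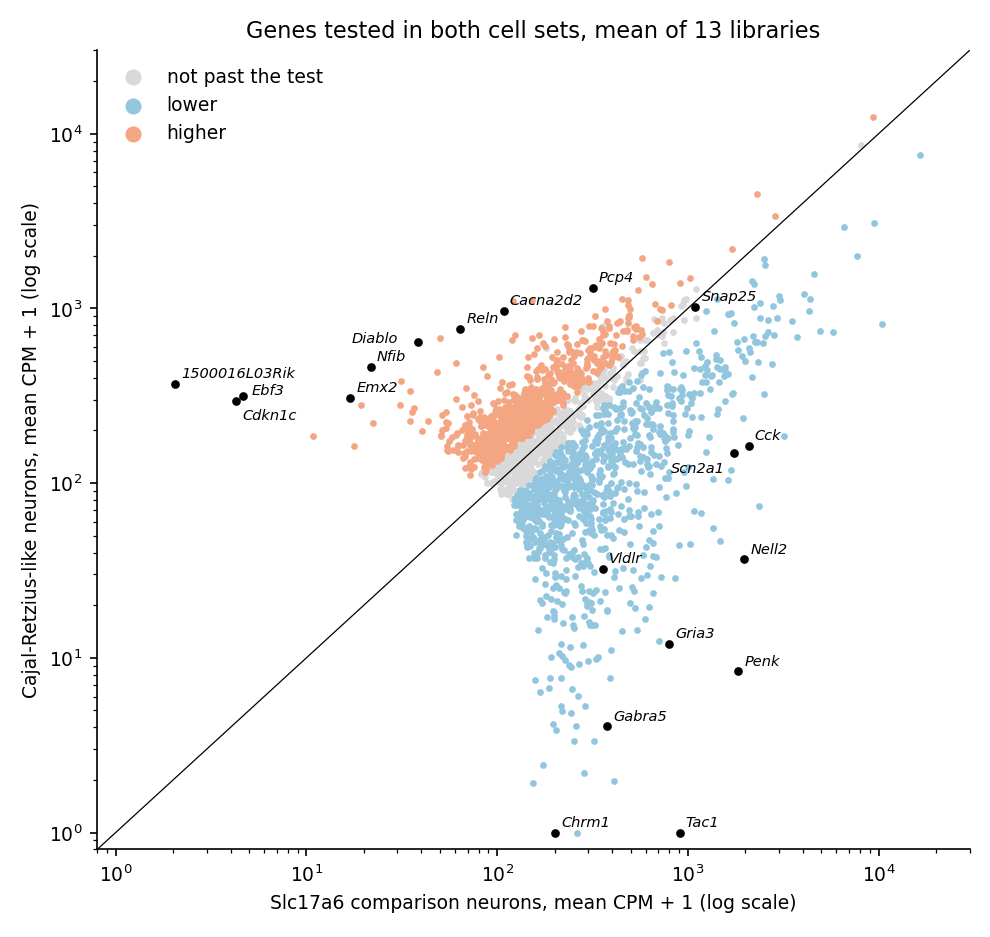
Mean level of each of 2235 tested genes over 13 libraries in Slc17a6 comparison neurons (x axis) and Cajal-Retzius-like cells (y axis), as TMM-scaled CPM + 1 on log axes. Orange genes were higher (803), light blue lower (922) and grey did not pass, and black points are named genes. Ebf3, Cdkn1c and 1500016L03Rik lie far above the line, with under 5 CPM in the comparison neurons.

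The 15 genes with the largest rise held Reln, Ebf3, Emx2 and Cacna2d2 of the marker list and 11 others, inhibitors of the cell cycle and a gene of cell death among them. Cdkn1c, the cyclin-dependent kinase inhibitor p57 (chr7:143458339-143461050, minus strand), lay at 129.9, 279.7 and 469 CPM in the lowest, median and highest library against 0, 3.31 and 14.5 CPM. The sets did not overlap, and it was higher by 6.17 ± 0.29 (SE, n = 13, edgeR adjusted p = 5.0e-21). Its relative Cdkn1b, p27, lay at 171, 321 and 486 CPM against at most 57.7 CPM (3.22 ± 0.22). Diablo, a mitochondrial protein that counters inhibitors of apoptosis, lay at 261, 620.0 and 1002 CPM against 22.2, 36.4 and 75.8 CPM (4.02 ± 0.20). 1500016L03Rik, named only by its clone, had 287 UMIs in 62.4% of the cells and 3 UMIs in the comparison neurons, a ratio of 402 (counting interval 136 to 1962).

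Nuclear factor I genes and genes of RNA-binding proteins were also among the 11. Nfib lay at 186, 479 and 567.7 CPM against at most 37.9 CPM, higher by 4.34 ± 0.23, and Nfix at 148, 391 and 537 CPM against at most 72.5 CPM, higher by 3.70 ± 0.23 (SE, n = 13). Nfib was also in 25.6% of astrocytes at equal depth, against 38.5% of the Cajal-Retzius-like cells and 1.80% of comparison neurons. Dach1, a transcriptional regulator, lay at 278 ± 94.2 against 18.2 ± 12.0 CPM (3.86 ± 0.23). Msi2 and Rbms1, which bind RNA, lay at 677 ± 150.5 against 49.0 ± 24.2 CPM (3.79 ± 0.19) and at 220.0 ± 61.3 against 21.2 ± 14.0 CPM (3.33 ± 0.25). Fkbp9, a prolyl isomerase of the endoplasmic reticulum, and H3f3b, a gene of histone H3.3, were higher by 4.14 ± 0.26 and 3.19 ± 0.14. All 15 genes were higher in 13 of 13 libraries. Their choice had asked for the same sign in at least 80% of libraries, so nothing is read from this.

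Transcription factors of neurons went in both directions. Of the 7 in the list that passed the filter, 6 were higher and 1 (Mef2c) lower, with a median of 2.20 on the log2 scale. Of all genes tested 35.9% were higher and 41.3% lower. Nr2f2, an orphan nuclear receptor of caudal and ventral forebrain, lay at 525.9 ± 148 against 193 ± 64.1 CPM (1.47 ± 0.17), and Nr2f1 at 212 ± 82.5 against 109 ± 27.8 CPM (0.94 ± 0.18). Bcl11a and Id2 were higher by 2.39 ± 0.20 and 2.20 ± 0.19. Mef2c, a factor of maturing excitatory neurons, differed by -3.34 ± 0.27. Without the filter 18 of 54 rose and 18 fell, where 9.43% of all genes rose and 19% fell. Zic2, Zic4, Lhx2 and Lhx9 rose beside Zic1, Lhx1 and Lhx5. Otp, Sim1, Foxp2 and Meis2 fell. Foxp2, a forkhead factor, had 0 UMIs in all Cajal-Retzius-like cells against 90.

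A gene could pass the filter through its level in the comparison neurons alone, and such a gene had to be lower, so counts without the filter stand beside those with it. Over all genes 35.9% were higher and 41.3% lower with the filter, and 9.43% and 19% without it. Genes of receptors for synaptic input were lower. All 25 glutamate and GABA receptor genes that passed the filter were lower and 0 higher, with a median of -3.15 on the log2 scale against -0.01 over all genes, of which 41.3% were lower. Without the filter 33 of 36 were lower. Gria3, an AMPA receptor subunit, lay at 0, 0 and 46.6 CPM against 429, 758 and 1479 CPM without overlap (-6.65 ± 0.32, edgeR adjusted p = 1.2e-20). Gabra5, a GABA-A receptor subunit, had 2 UMIs against 1083, a ratio of 129 (counting interval 35.6 to 1065). Grm5, a metabotropic glutamate receptor, lay at 43.3 ± 55.2 against 901 ± 227 CPM (-4.73 ± 0.38). Chrm1, a muscarinic acetylcholine receptor, had 0 UMIs against 551 and was at least 43.7-fold lower.

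Most ion channel genes were low as well. Of 12 potassium channel genes tested 11 were lower and 0 higher (median -2.50), and of 14 sodium and calcium channel genes 13 were lower and 1, Cacna2d2, higher (median -1.71). Without the filter 26 of 37 and 25 of 29 were lower, and 1 of each higher. Of all genes 41.3% were lower with the filter and 19% without it. Scn2a1, a pore subunit of sodium channels, lay at 74.8, 126 and 419.6 CPM against 1234, 1787 and 2393 CPM, with no overlap (-3.68 ± 0.18, SE, edgeR adjusted p = 1.0e-20). Scn1a lay at 13.8 ± 21.3 against 253 ± 80.6 CPM (-4.10 ± 0.34). Kcna1, a delayed rectifier subunit, lay at 14.8 ± 28.9 against 219.8 ± 45.6 CPM (-4.35 ± 0.38), and Kcnk1, a leak channel subunit, at 19.7 ± 30.1 against 304 ± 60.9 CPM (-4.18 ± 0.32). Cacna2d1, a relative of Cacna2d2, was lower, at 510.1 ± 88.3 against 1405 ± 224 CPM (-1.45 ± 0.13).

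Of 25 neuropeptide and granin genes in the data 11 passed the filter, and 11 of these were lower (median -3.95). Without the filter 17 of 24 were lower and 0 higher. The shares of all genes that were lower, 41.3% with the filter and 19% without it, apply here and to the receptors below. Npb, a neuropeptide gene outside the list and chosen after its values were seen, had 96 UMIs against 0. Tac1, the precursor of substance P, had 0 UMIs in the Cajal-Retzius-like cells of all 13 libraries against 2660 in the comparison neurons, at least 211-fold lower. Penk, the enkephalin precursor, lay at 0, 0 and 46.6 CPM against 941, 2033 and 2411 CPM (-7.98 ± 0.29, edgeR adjusted p = 1.9e-24), without overlap. Cartpt, the precursor of CART peptides, had 2 UMIs against 957, a ratio of 114 (counting interval 31.4 to 941). Vgf, a granin-like protein of dense core vesicles, lay at 13.2 ± 15.1 against 448 ± 145 CPM (-4.93 ± 0.28). Of the receptors for peptides and hormones 3 passed the filter and 3 were lower, and without it 28 of 33 were lower and 0 higher. Among the 3 was Nr3c1, the glucocorticoid receptor (-0.78 ± 0.24).

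Of 19 synaptic vesicle genes tested, 13 were lower, 2 higher and 4 did not pass (median -1.50). Without the filter 20 of 31 were lower and 0 higher. Of all genes 41.3% were lower with the filter and 19% without it. Sv2b lay at 31.5 ± 29.6 against 454 ± 118 CPM (-3.98 ± 0.26), and Syp, synaptophysin, at 145, 295 and 979 CPM against 1229.5, 1679 and 2392 CPM (-2.51 ± 0.19). Vamp2, part of the fusion machinery, was higher by 0.56 ± 0.14, but without the expression filter the difference was 0.25 and did not pass (edgeR adjusted p = 0.247). Of 30 axon guidance and adhesion genes, 27 were lower and 3 higher (median -3.12), and without the filter 48 of 58 were lower and 3 higher. The same shares of all genes apply here. Cdh8, a cadherin, had 1 UMI against 756, a ratio of 179.8 (counting interval 32.2 to 7113). Robo2, a receptor for Slit, lay at 401 ± 114 against 242 ± 101 CPM (0.77 ± 0.15), and Sema6a was higher by 0.93 ± 0.26. Flrt3 was higher by 0.66 ± 0.21, but did not pass without the filter (0.34, edgeR adjusted p = 0.183).

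**Figure D4:**
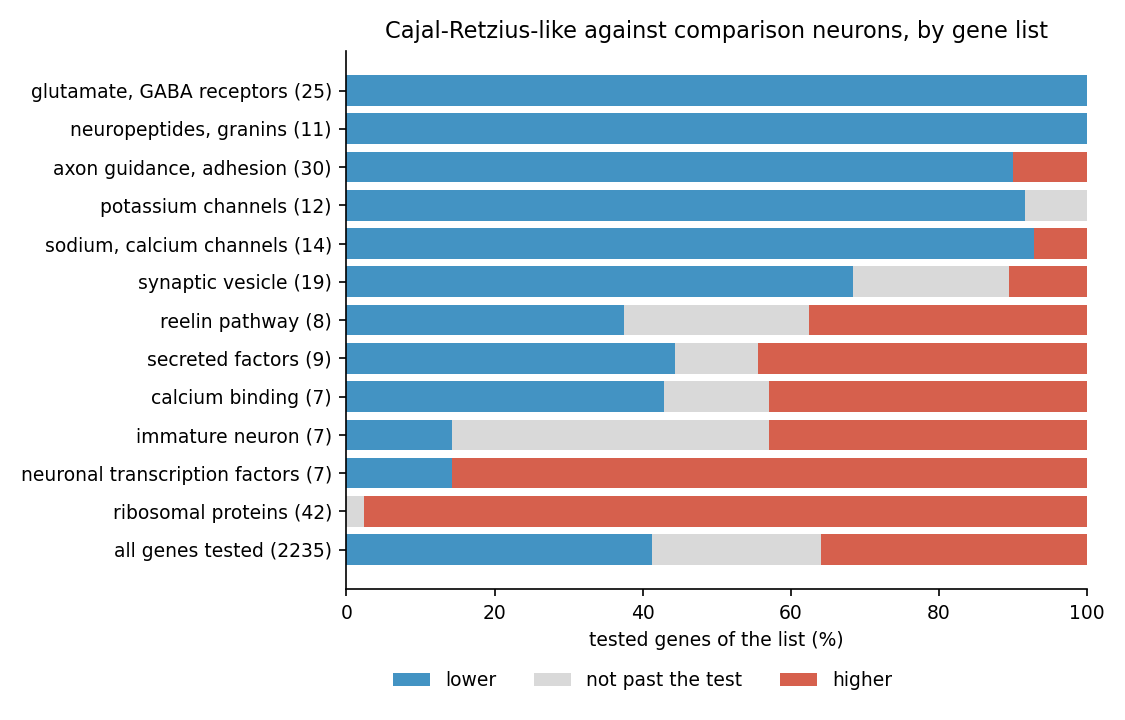
Share of the tested genes of each list (x axis, %) that were lower (blue), did not pass (grey) or were higher (red) in Cajal-Retzius-like cells than in comparison neurons, with the number tested in brackets. All receptor (25) and neuropeptide (11) genes tested are lower, 41 of 42 ribosomal protein genes are higher, and all genes tested split into 41.3% lower and 35.9% higher.

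In the reelin pathway the ligand was higher, and of the genes that receive its signal some were lower. Of 8 genes of the pathway list tested, 3 were higher (Reln, Cfl1 and Gsk3b), 3 lower (Vldlr, Ncam1 and Cdh2) and 2 did not pass, with a median of -0.11. Without the filter 1 of 20, Reln, was higher and 6 were lower. Of all genes 35.9% were higher and 41.3% lower with the filter, and 9.43% and 19% without it. Vldlr, a reelin receptor, lay at 0, 32.1 and 114 CPM against 248, 354 and 507 CPM, without overlap (-3.56 ± 0.27, edgeR adjusted p = 6.8e-15). Dab1, the adaptor of the receptors, lay at 8.42 ± 13.3 against 113 ± 39.3 CPM (-3.44 without the filter). Lrp8, the other reelin receptor, lay at 67.8 ± 39.7 against 69.2 ± 16.6 CPM and did not pass (-0.26 without the filter, edgeR adjusted p = 0.547). Cfl1, which severs actin filaments, and Gsk3b, a kinase, differed by 0.57 ± 0.16 and 0.53 ± 0.16, and neither passed without the filter (0.27 and 0.23).

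Among secreted factors, 4 of 9 tested were higher, 4 lower and 1 did not pass (median 0.14), while without the filter 7 of 41 were higher and 22 lower. The counts with the filter were near the 35.9% higher and 41.3% lower of all genes. Without it 9.43% of all genes were higher and 19% lower. Cxcl12, the ligand of Cxcr4, lay at 152 ± 73.0 against 54.0 ± 57.1 CPM (1.60 ± 0.44, edgeR adjusted p = 0.0036), higher in 12 of 13 libraries with overlapping values. Nptx1, a neuronal pentraxin, was higher by 0.94 ± 0.18. Pdgfa was higher by 0.38 ± 0.17 (adjusted p = 0.0393), but did not pass with relative log expression scaling, by DESeq2 or without the filter (0.25, 0.25 and 0.08). Bdnf, a neurotrophin, lay at 55.8 ± 65.2 against 703 ± 285 CPM (-3.57 ± 0.29), and Cx3cl1, a chemokine, at 115 ± 38.1 against 794 ± 172 CPM (-2.91 ± 0.17).

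Of 7 genes of immature neurons tested, 3 were higher, 1 lower and 3 did not pass (median 0.23), and without the filter 5 of 15 were higher and 3 lower. The shares of all genes were 35.9% higher and 41.3% lower with the filter, and 9.43% and 19% without it. Stmn1, a microtubule regulator of growing neurons, lay at 633 ± 131 against 173 ± 49.7 CPM without overlap (1.88 ± 0.14), and Marcksl1 at 256 ± 76.0 against 80.7 ± 35.1 CPM (1.67 ± 0.21). Among 7 genes of calcium-binding proteins, 3 were higher and 3 lower (median 0.25), while without the filter 1 of 17 was higher and 7 lower. With the filter these counts were near the 35.9% and 41.3% of all genes. Pcp4, a calmodulin regulator, lay at 715, 1328 and 2189.6 CPM against 136, 312 and 563 CPM, without overlap (2.06 ± 0.14), and Ncald at 23.2 ± 41.3 against 521 ± 104 CPM (-4.83 ± 0.30). Calm2, which encodes calmodulin, was higher by 0.38 ± 0.11, but the difference was 0.07 without the filter and did not pass. Jun and Jund, the immediate early genes that passed the filter, were higher by 2.01 ± 0.24 and 1.26 ± 0.20. Without the filter 3 of 22 immediate early genes were higher (Jun, Jund and Fosl2) and 3 lower (Egr1, Egr4 and Homer1).

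Most ribosomal protein genes that passed the filter were higher. Of 42 tested, 41 were higher, 0 lower and 1 did not pass, with a median of 1.02. Without the filter 42 of 84 were higher and 1 lower. For all genes the shares were 35.9% higher and 41.3% lower with the filter, and 9.43% and 19% without it. When scaled by relative log expression 37 were higher and 0 lower (median 0.89), and that scaling moved the median of all genes from -0.01 to -0.15 and the split of all calls from 803 higher and 922 lower to 697 and 986. Rps9 lay at 259.8, 766 and 872 CPM against 97.9, 162 and 231 CPM, without overlap (2.07 ± 0.15, edgeR adjusted p = 2.4e-15), and Rplp0 at 379 ± 78.2 against 105 ± 29.8 CPM (1.86 ± 0.16).

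Reln was detected in most but not all of the cells, and whether its level varied among them beyond sampling was not tested. No Reln UMI was counted in 31 of the 189 cells, whose median was 2214 UMIs, against 3426.5 UMIs in the 158 cells with Reln. Pooled, unscaled Lhx1 was 343 CPM without and 362 CPM with Reln, and Ebf3 343 and 346 CPM. Other markers were lower in the cells without Reln, Lhx5 at 114 against 216 CPM, Cacna2d2 at 671 against 1155 CPM and Ndnf at 1869.7 against 2732 CPM. Only 1 library held 5 cells of each kind, so these sets could not be compared by a test, and their depths differ. Of the 107 cells with Lhx1, 95 also held Reln.

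Between the sexes, 1 gene passed within these cells. Of 1341 genes tested between 6 male and 7 female libraries by edgeR this was Xist (0.0746%), which had 0 UMIs in males and 727 ± 116 CPM in females (SD, n = 7). At an unadjusted p under 0.05 there were 78 genes, and DESeq2 also called 1. The Y-linked Eif2s3y had 38 UMIs in males and 0 in females. Lhx1 lay in males at 244 ± 135 CPM and in females at 444 ± 92.9 CPM, a male minus female log2 difference of -0.78 ± 0.25 that did not pass (edgeR unadjusted p = 0.0026, adjusted p = 0.755). Chl1, an adhesion molecule, lay at 804 ± 214 in males against 461 ± 131 CPM in females (0.76 ± 0.20, edgeR adjusted p = 0.244). Reln lay in males at 779 ± 259.7 CPM and in females at 897 ± 121 CPM (edgeR adjusted p = 0.998). Whether a sex difference itself differed between the Cajal-Retzius-like and the comparison neurons was tested for 3501 genes, of which 0 passed by edgeR (0%, with 153 at an unadjusted p under 0.05) and 0 by DESeq2 (with 102).

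The share of neurons that were Cajal-Retzius-like was 4.35 ± 2.12% in males (SD, n = 6) and 6.51 ± 2.61% in females (SD, n = 7). Male libraries spanned 2.06% (95% Wilson interval 0.882 to 4.73) to 8.23% (5.33 to 12.5), and female libraries 2.43% (1.24 to 4.72) to 10.1% (6.87 to 14.6), so the sexes overlapped. The male minus female difference of -2.16 percentage points did not pass (exact two-sided permutation p = 0.136 over 1716 assignments). Among the 9-week libraries it was -0.656 points (5.26 ± 2.02%, n = 4, against 5.91 ± 2.27%, n = 6, exact permutation p = 0.662), and the 8-week libraries were too few, 2 male and 1 female, for a value. Without male replicate 1, the highest male library, it was -2.93 points (exact permutation p = 0.0417), and without female replicate 2, the lowest female library, -2.84 points (exact permutation p = 0.0390). Shares are of cells that survived dissociation and met the 500-gene minimum, as 3649 of 10166 deposited neurons did.

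**Figure D5:**
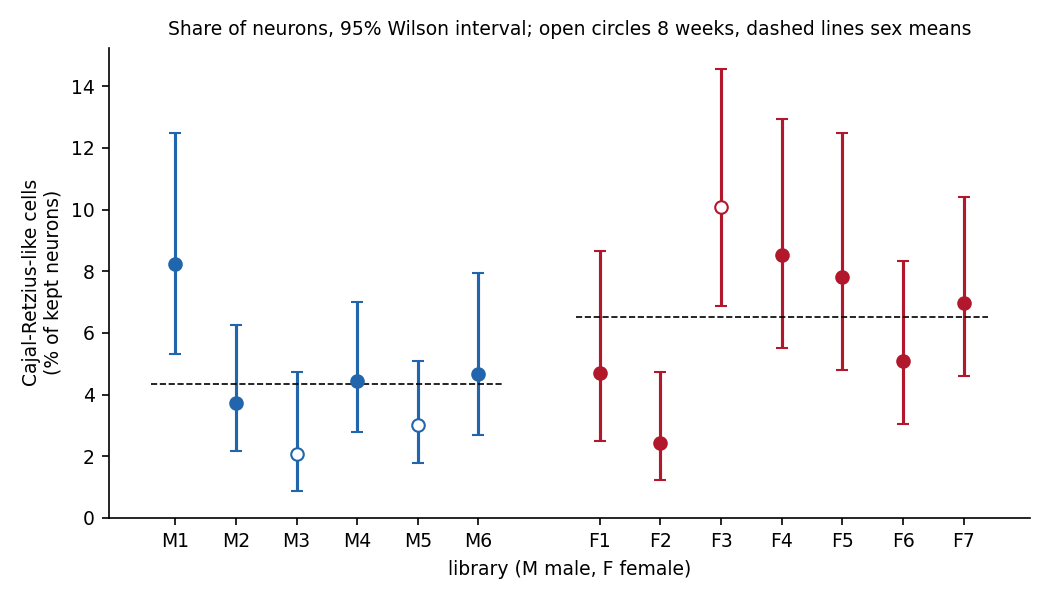
Cajal-Retzius-like cells as a percent of the neurons with at least 500 genes in each library (y axis), male libraries M1 to M6 in blue and female libraries F1 to F7 in red, with 95% Wilson intervals that cover counting error only. Open circles are 8-week libraries and dashed lines the mean of each sex, 4.35% and 6.51%. The libraries of the sexes overlap.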

How the data were processed

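The authors deposited counts of unique molecular identifiers (UMIs) for 16961 genes in 43388 cells, with a class for each cell. Per the submitters' processing notes, STAR 2.5.0a, bcl2fastq 2.17.1.14 and the mm10 build were used. The sources used here do not state the method of UMI collapsing or of cell selection. The deposited counts held 0 mitochondrially encoded genes. The members and lists were chosen with earlier results of these data known.

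Counts were summed per library and set of cells, with at least 5 cells of each set in a library. They were tested by edgeR's quasi-likelihood test (edgeR 4.0.16, R 4.3.3; filterByExpr, TMM, library as a block between sets of cells, Benjamini-Hochberg adjustment, threshold 0.05). Levels are TMM-scaled CPM averaged over libraries unless called pooled. CPM in the sex comparison use that fit's own scaling. Shares were compared by exact permutation (Python 3.11.15, scipy 1.17.1, numpy 2.4.6), and cells were thinned to 1000 UMIs by expected values. A count of 0 was read as up to 3 counts over the set. Intervals and floors cover counting error only.

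Genes named were the rule genes, the Cajal-Retzius list, the 15 higher and 10 lower with the largest difference and at least 50 CPM, up to 4 per list and direction, and up to 5 per direction in the other fits. Genes named beyond this were chosen after their values were seen. Some genes that the rule selects are not reported here. The fits were tested on simulated data. Scrublet (scanpy 1.11.5) called 281 doublets in 24808 cells with at least 500 genes (1.13%), and 4 of the 189 cells. They were kept, and leaving them out was an alternative. DESeq2 1.42.0, relative log expression scaling, no filter, stricter cell limits and leaving out each library were others.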

Additional observations from a re-analysis of the deposited data

Results flagged for a closer look

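Within 1 sex, single libraries stood apart from the others in the level of 6 marker genes in the Cajal-Retzius-like cells. Of 60 groups of libraries examined 6 had such a value, where chance gives about 1 in 20. Eomes was 222.7 CPM in male replicate 5, and the next male library had 8.42 CPM. Nfib was 185.6 CPM in male replicate 5, below 434 CPM in the next. Rbms1 was 352.6 CPM in male replicate 4, above 233 CPM. Barhl2 was 195.3 CPM in female replicate 2, above 84.1 CPM. Dach1 was 485.7 CPM in female replicate 1, above 299 CPM. Zic1 was 21.0 CPM in female replicate 6, below 117 CPM. These libraries held 8 to 17 of the cells each.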

How the results depend on the processing

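Of 94 named genes tested against the comparison neurons, 82 kept their call and direction in each of the up to 24 settings in which they were tested, and 11 lost the call in at least 1. Of these 11, Xist also reversed, at 0.30 after thinning to 1000 UMIs. Calb2 did not pass but did so in 6 settings. The number of genes that differed was 1725, against 4557 without the expression filter and 275 of 327 tested after thinning, and lay between 1526 (without male replicate 1) and 2023 (without female replicate 5) when single libraries were left out. Without the filter it was 4191 for cells chosen by Trp73, 4414 for those chosen by Nhlh2 with Ndnf and 2559 against Ndnf-only neurons.

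Between the sexes 1 gene passed, against 5 without the filter, 2 without cells over 10000 UMIs, 2 in 9-week libraries and 1 to 2 without single libraries, with 2 without female replicate 3. The sex difference that differed between sets gave 2 genes without the filter. The male minus female share was -1.56 to -2.93 points without single libraries, and passed without male replicate 1 (-2.93) or female replicate 2 (-2.84). Deviations of male and female libraries with the same replicate number correlated at -0.0390 to 0.116. Among the 6 male libraries 2 correlated best with the female library of their own number. Sums of 5 to 24 cells may be too sparse to show a pairing. A fit with the replicate number as a block called 4 of 1159 genes. Cells with and without Reln were not compared, as 1 library held enough of both, and the rule on shallower neurons found 14 cells and no library with enough. The 9-week, other-marker and Ndnf-only settings were chosen after seeing the data. Depth limits genes such as Ebf1, Ebf2 and Eomes, with few UMIs in 189 cells.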

Other observations

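Further genes that were higher in the Cajal-Retzius-like cells were looked at after their values were seen. They are given as values by edgeR without the expression filter. Npb, which encodes neuropeptide B, had 96 UMIs against 0 in the comparison neurons, at least 135-fold higher, and was higher in 13 of 13 libraries. Gdf5, a secreted factor of the bone morphogenetic protein family, had 54 UMIs against 0 (at least 75.7-fold), and Gcgr, the glucagon receptor, 53 against 0 (at least 74.3-fold). Dmrta2, a transcription factor of the medial cortex, lay at 178 ± 69.9 CPM (SD, n = 13), with 143 UMIs against 3, a ratio of 200.4 (counting interval 67.2 to 983). Sfrp1, a secreted Wnt modulator, lay at 161 against 26.8 CPM (log2 difference 2.26). Kit, a receptor tyrosine kinase, lay at 132 against 26.9 CPM (2.15). It belongs to a list of markers of GABAergic layer 1 neurons with Ndnf. Of 14 genes of that list 1 was higher and 6 lower without the filter, where 9.43% of all genes were higher and 19% lower.

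The list of the p53 family and its targets had no gene past the expression filter. Without it, 6 of 20 were higher and 1 lower, where 9.43% of all genes were higher and 19% lower. Cdkn1a, the cyclin-dependent kinase inhibitor p21, lay at 41.8 ± 28.3 against 7.60 ± 6.38 CPM (SD, n = 13; 2.03), and Mdm2, the ubiquitin ligase of p53, at 110.1 ± 48.5 against 41.0 ± 15.6 CPM (1.04). Ei24 differed by -0.89.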
